A study of Drosophila melanogaster with 18 samples.

Results

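The genes described here mostly encode proteins of the cytosolic ribosome of Drosophila melanogaster. They are the rows of the count table whose FlyBase identifier has a current symbol beginning with RpL (large subunit) or RpS (small subunit). Of 17402 genes 87 met that rule, 51 with large-subunit and 36 with small-subunit symbols. Among them are RpL24-like and RpLP0-like, described below as counterparts of assembly factors and counted as members throughout. No symbol was found for 192 rows, and no member was named RpL19, RpL27A, RpL31, RpS10b or RpS12. The set, and its share of library counts, may therefore miss genes of the ribosome. The rule itself uses no measured value, though it was set with earlier results of these data known. Counts came from RNA sequencing of 18 libraries, 3 in each of 6 groups, made to follow the transcriptome after loss of shep (alan shepard), which encodes an RNA-binding protein. BG3-c2 cells, a line from the nervous system, were treated with shep dsRNA, a double-stranded RNA that triggers interference, or with GFP dsRNA as control. Neurons were sorted alive from P14 pupae carrying elav>shep-RNAi, Dcr, mCD8::GFP or, as control, elav>Dcr, mCD8::GFP, and from larvae of the third instar with the same genotypes. Knockdown and control neurons thus both carried the elav driver, the Dcr transgene that strengthens RNAi and the membrane GFP, and all flies were raised on cornmeal food at 25 °C. The elav driver is known mainly from neurons, and what else carried it was not given in the labels. Nothing in the labels says whether the replicates came from separate animals or cultures, so the p-values cover only the variation among the libraries at hand.

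The cytosolic ribosome translates all nuclear-encoded messages. Most of its proteins are needed in equal amount, so that most ribosomal protein genes are expressed in all tissues and at related levels. In flies, heterozygous loss of many of them gives the Minute phenotype of slow growth and thin bristles. Dividing neuroblasts of the larval brain are known for high ribosome production, which declines as their progeny differentiate into neurons. Some proteins are encoded by paralogous genes, of which the lesser copy is often known from the germ line, and several "-like" genes encode counterparts of yeast ribosome assembly factors and not of ribosomal proteins.

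BG3 libraries held 3651214 to 5081610 counts with shep dsRNA and 3141100 to 3203392 with GFP dsRNA. Neuron libraries were deeper, with 7392299 to 10607171 counts on RNAi and 8548493 to 9445025 without it in pupae, and 9134690 to 10793289 on RNAi and 9984725 to 12910603 without it in larvae. The targeted gene was lower in every knockdown group. shep averaged 1119 ± 166 CPM in pupal RNAi and 2098 ± 228 CPM in pupal control neurons (SD, n = 3 each here and below), with a log2 fold change of -0.92 (edgeR's adjusted p = 3.70e-06). In larval neurons it averaged 548 ± 33.3 CPM on RNAi and 1474 ± 136 CPM in controls, and in BG3 cells 169 ± 23.8 CPM with shep dsRNA and 354 ± 21.4 CPM with GFP dsRNA. CPM here are counts scaled to a common library size with TMM factors from all 18 libraries. The 5 neuronal markers summed to 224 to 235 CPM in BG3 GFP dsRNA cells, where only 2 of the 5 reached 1 CPM and the synaptic genes brp and nSyb were near 0, against 18937 to 23829 CPM in pupal control and 4269 to 4701 CPM in larval control neurons. Between the stages, brp, nSyb, Syt1 and Syx1A were higher in pupal control neurons. The marker elav went the other way, with 1093 to 1262 CPM in pupal control and 2714 to 2800 CPM in larval control neurons. BG3 GFP dsRNA replicate 2 stood apart for the ribosomal protein genes, as described with the BG3 results.

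Ribosomal protein messages took very different shares of the libraries. The 87 genes held 8.94 ± 0.208% of all counts in BG3 shep dsRNA and 9.41 ± 1.22% in BG3 GFP dsRNA cells. They held 0.572 ± 0.0216% in pupal RNAi and 0.724 ± 0.0224% in pupal control neurons, and 3.61 ± 0.110% in larval RNAi and 3.67 ± 0.302% in larval control neurons. The highest pupal RNAi library (0.589%) was thus below the lowest pupal control library (0.700%), whereas larval RNAi libraries (3.50% to 3.72%) lay inside the larval control range (3.41% to 3.998%). The RNAi to control ratio of the mean share was 0.791 in pupal and 0.984 in larval neurons. The exact 2-sided permutation test gave p = 0.1 for the pupal and p = 0.9 for the larval difference, and 0.1 is the smallest that 3 against 3 libraries allow. Leaving rRNA and mitochondrial genes out of the totals gave 0.588 ± 0.0263% in pupal RNAi against 0.751 ± 0.0283% in pupal control neurons.

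**Figure D1:**
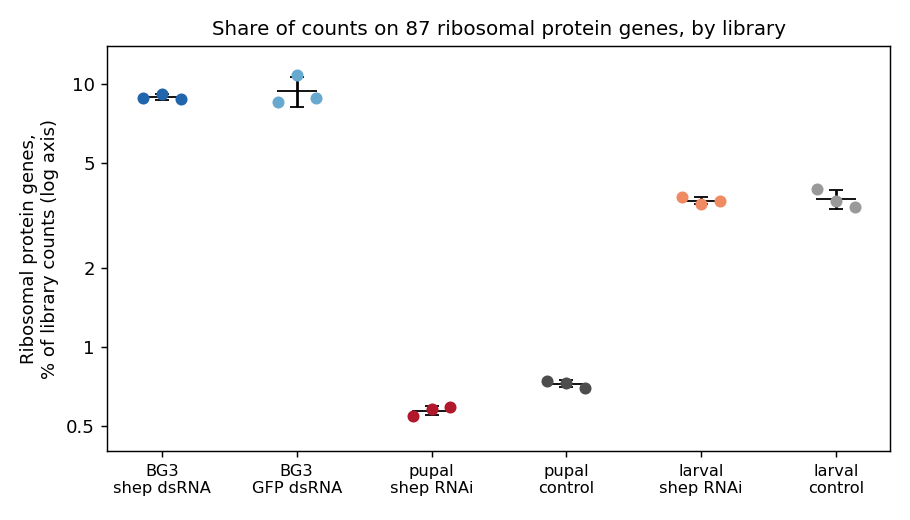
Share of library counts on the 87 ribosomal protein genes, as a percentage on a log axis, for each of the 18 libraries (points) with the mean and SD of each group (bars). Pupal RNAi libraries lie at 0.548% to 0.589%, below the pupal controls at 0.700% to 0.745%, and the larval RNAi and control libraries overlap.

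Levels per length spread widely around the common level. In BG3 GFP dsRNA cells the median of the 80 members tested over all 18 libraries was 797 CPM per kb of exon, and the highest was RpL23, of the large subunit, at 5189. In pupal control neurons the median was 120 CPM per kb, with the middle 50% from 67.3 to 183, and RpL41, which encodes the smallest ribosomal protein, was highest at 559. In larval control neurons the median was 350 CPM per kb (middle 50% from 241 to 598) and RpL41 was again highest at 2465. The lowest of the 80 in all 3 control settings was the paralogue RpS19b, at 1.29 CPM per kb in BG3 GFP dsRNA, 0.393 in pupal control and 0.646 in larval control libraries. Replicates differed little, with a median coefficient of variation over members of 4.82% to 8.48% in the neuron groups and 5.92% in BG3 shep dsRNA cells, against 15.2% in BG3 GFP dsRNA cells.

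The first comparison asked what shep RNAi did to these genes in pupal neurons. Ribosomal protein genes fell together and modestly. Of the 79 members with enough counts for the test, 40 fell at an edgeR adjusted p under 0.05, 0 rose, and 76 had a negative log2 fold change. Of all 8784 genes tested, 4.17% were called lower and 3.48% higher, and 0 members were higher at an unadjusted p under 0.05 or with DESeq2 or limma-voom. The median log2 fold change was -0.32 over the 79 members and 0.01 over all genes tested, with the middle 50% of members from -0.43 to -0.22. The groups did not overlap for 50 members, all lower on RNAi, against 12.7% of all genes lower without overlap. Both subunits were involved, with 26 of 47 large-subunit genes (median -0.31) and 14 of 32 small-subunit genes (median -0.33) called lower. Leaving out 1 library at a time kept 20 of the 40 calls in every fit, and without pupal RNAi replicate 1 the count was 23. Of the genes named below, RpL11, RpL40 and RpS26 lost their call without that library, RpLP1 without RNAi replicate 1 or 2, and RpL4 without RNAi replicate 2 or control replicate 2. RpL10 lost it without RNAi replicate 1 or any 1 pupal control library, and RpL3 kept it in 2 of 12 such fits. RpS21 lost it without RNAi replicate 1 or 2 or control replicate 2. RpL10, RpL37A and RpS21 also lost their call with the gene length trend removed or with only the 2 pupal groups in the fit, RpL37A and RpS21 with limma-voom, and RpL3 with only the pupal groups. The sites in the ribosome used below to order the genes were assigned from textbook knowledge after the data were seen, and nothing particular to a site is read from their counts, to be set beside the 40 of 79 over all members.

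The smallest p belonged to RpL41 (FBgn0066084, arm 2R from 24903416 to 24903935 of dm6). It had 111, 111 and 108 CPM in pupal RNAi libraries, against 178, 180 and 179 CPM in pupal controls. All 3 RNAi libraries lay below all controls, with a gap many times the spread within each group. The log2 fold change was -0.72 (SE 0.08, edgeR's adjusted p = 2.76e-06), a change of -39.3%. RpL28 (FBgn0035422, 3L from 3220911 to 3222960), of the large subunit, had 80.2, 83.2 and 81.5 CPM on RNAi, against 127, 131 and 121 CPM in controls, again without overlap (log2 fold change -0.64, SE 0.08, edgeR's adjusted p = 2.07e-05).

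RpL17 (FBgn0029897, X from 6741537 to 6744238), at the rim of the exit tunnel, had 56.4, 62.4 and 61.9 CPM in pupal RNAi neurons and 90.6, 88.2 and 90.1 CPM in pupal controls. Its groups were far apart, with a log2 fold change of -0.59 (SE 0.08, edgeR's adjusted p = 4.53e-05). Of the 6 exit tunnel genes, RpL17, RpL4 and RpL23A fell, while RpL26 (-0.28), RpL39 (-0.30) and RpL35 (0.06) did not pass. All 3 genes for proteins near the peptidyl transferase centre fell, led by RpL8 with 88.9, 91.9 and 104 CPM on RNAi against 157, 134 and 132 CPM in controls (log2 fold change -0.59, SE 0.09, edgeR's adjusted p = 0.000308). The others were RpL10 (-0.32) and RpL3 (-0.28), and RpL3 was the member nearest the threshold on the called side (edgeR adjusted p = 0.0487).

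Both partners of 5S rRNA fell in pupal neurons. RpL5 (FBgn0064225, 2L from 22532279 to 22536884), which with RpL11 carries 5S rRNA into the large subunit, had 357, 368 and 347 CPM on RNAi, against 508, 503 and 481 CPM in controls. The groups stood clear of each other (log2 fold change -0.49, SE 0.08, edgeR's adjusted p = 0.000348). RpL11 had 25.1, 31.3 and 31.8 CPM on RNAi, against 49.1, 40.9 and 37.7 CPM in controls, a wider scatter but no overlap (log2 fold change -0.55, SE 0.12, edgeR's adjusted p = 0.00448). In the stalk, which recruits elongation factors, RpLP1 fell (-0.40), whereas RpLP2 (-0.31), RpLP0 (-0.26) and RpL12 (-0.15) did not pass.

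On the small subunit, RpS2 (-0.58) and RpS3 (-0.41), which sit at the mRNA entry, fell, and RpS30 (-0.43) there did not pass. At the mRNA exit RpS14a (-0.62) and RpS26 (-0.43) fell, and RpS14b (-0.44) and RpS28b (-0.34) did not pass. RpS6, the small-subunit protein phosphorylated by S6 kinase, had 317, 300 and 332 CPM on RNAi and 307, 350 and 331 CPM in controls. These ranges overlap, and its log2 fold change was -0.07 (SE 0.08, edgeR's adjusted p = 0.698). The genes for ubiquitin fusion proteins split at the threshold, with RpL40 called (-0.33, edgeR adjusted p = 0.00993) and RpS27A not (-0.29, edgeR adjusted p = 0.0514).

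Not all members shared the fall to the same degree. RpL27 (0.01), RpL7 (-0.01) and RpS20 (-0.01) had log2 fold changes near 0 in pupal neurons, with SE of 0.10 to 0.11. RpS20, for example, had 63.5, 58.5 and 67.8 CPM on RNAi, inside the control values of 52.2, 74.6 and 63.1 CPM. Across the 79 members, the log2 fold change had a Spearman's rho of -0.07 with exonic length and of 0.24 with mean level, over genes that share libraries. By position, 12 of 16 tested members on chromosome arm 2L were called lower, 8 of 17 on 2R, 8 of 13 on 3L and 9 of 19 on 3R. On X it was 3 of 13, and on arm 4 it was 0 of 1. Medians ran only from -0.37 (2L) to -0.31 (X), apart from -0.20 for the 1 member on arm 4. The 26 tested members with a snoRNA gene inside them had a median of -0.30 with 13 called, and the 53 without one a median of -0.34 with 27 called. Beside these counts stand 40 of 79 over all members and 4.17% of all genes called lower.

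**Figure D2:**
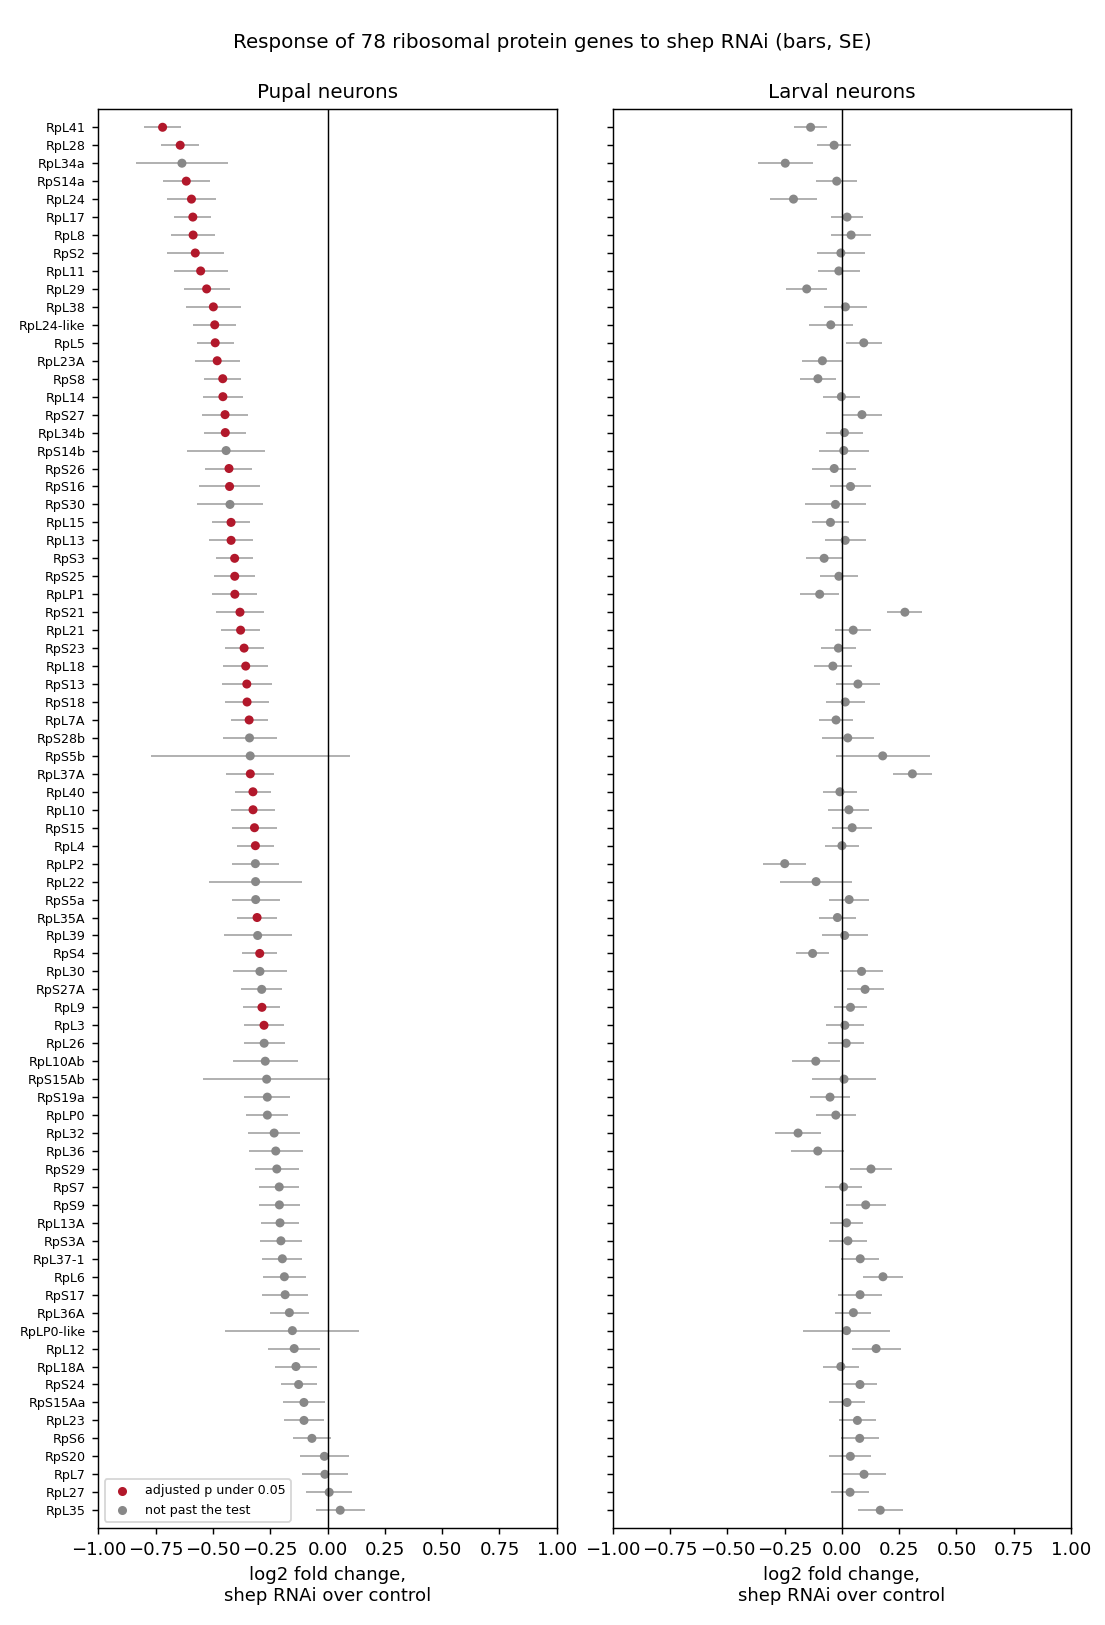
Log2 fold change of shep RNAi over control neurons for 78 of the 79 tested ribosomal protein genes in pupae (left) and larvae (right), with SE, ordered by the pupal value. Red points passed an adjusted p of 0.05; in pupae 40 genes passed, all below 0, and in larvae none did, with values between -0.25 and 0.31.

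Other markers and quality measures moved with the pupal groups. The summed level of 6 glial markers was 702 to 930 CPM in pupal RNAi and 938 to 1055 CPM in pupal control libraries, and that of 6 hemocyte markers 261 to 280 against 304 to 347 CPM, nearly all of it from Pxn. The defining glial gene repo had at most 4 counts in an RNAi library and 9 in a control library, and the hemocyte gene He was at 0 in both groups. rRNA genes took 1.31% to 2.14% of counts in RNAi and 1.94% to 3.13% in control libraries. The part of these in the result was not tested. In such pooled cells, fewer cells of a type and less RNA per cell cannot be told apart.

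Genes around the ribosome were set beside the members, from lists of textbook roles. The small-subunit genes sta and Rack1, whose symbols fall outside the rule, also fell. sta averaged 84.1 ± 11.2 CPM in pupal RNAi and 119 ± 6.91 CPM in pupal control neurons (log2 fold change -0.51, edgeR adjusted p = 0.00293), and Rack1 changed by -0.33 (edgeR adjusted p = 0.0206). The counts that follow are to be read against the 4.17% of all genes called lower and 3.48% called higher in pupal neurons. Of 69 tested genes for mitochondrial ribosomal proteins, 3 fell, with a median of -0.10. Of 9 genes listed for elongation or for a 5′ terminal oligopyrimidine tract, 1 fell. It was Tctp (-0.40), whose message carries such a tract in vertebrates as ribosomal protein messages do. Of 39 ribosome assembly genes, 1 fell, nclb (-0.86), and the median was -0.10. Of 12 genes that regulate ribosomal protein genes or growth 0 fell and 1 rose. This was Myc, a transcription factor that raises ribosome production, with 36.4 ± 5.08 CPM in pupal RNAi and 24.8 ± 3.22 CPM in pupal control neurons (log2 fold change 0.55, edgeR adjusted p = 0.00890).

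In larval neurons shep RNAi moved no member past the test. Of 79 tested members 0 were called, where 0.364% of all 8784 genes were. The median log2 fold change was 0.01 over the members and -0.0045 over all genes. At an unadjusted p under 0.05, 2 members were higher and 2 lower, limma-voom called 0, and DESeq2 called 1, RpS21, of the small subunit. RpS21 had 227, 216 and 235 CPM in larval RNAi libraries, all above the 184, 190 and 180 CPM of larval controls (log2 fold change 0.27, SE 0.08, edgeR's adjusted p = 0.153). RpL41 had 744, 691 and 741 CPM on RNAi and 807, 821 and 738 CPM in controls, with overlap (log2 fold change -0.14, SE 0.07, edgeR's adjusted p = 0.651).

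The pupal and larval responses were then compared directly. The pupal minus larval difference in log2 fold change was negative for all 79 members, with a median of -0.35 against 0.01 over all genes, and 7 members passed the test of that difference, all in this direction (0.262% of all genes were called in this direction and 0.102% in the other). They were RpL17 (-0.61), RpL28 (-0.61), RpL41 (-0.58), RpL5 (-0.59), RpS21 (-0.66), RpL8 (-0.63) and RpL37A (-0.64). For RpL5, larval RNAi libraries had 690, 724 and 762 CPM and larval controls 708, 668 and 640 CPM. The larval ranges overlap, whereas the pupal ones above do not. For RpL37A, of the large subunit, the responses pointed in opposite directions, with 39.2, 37.6 and 38.5 CPM in pupal RNAi against 48.1, 52.6 and 43.6 CPM in pupal control, and 200, 186 and 235 CPM in larval RNAi against 170, 164 and 162 CPM in larval control libraries. Neither pair of RpL37A groups overlaps, and its pupal fall (-0.34, edgeR adjusted p = 0.0486) was lost in 9 of 12 fits that left out 1 library. An antisense RNA gene shares 19.7% of its exonic bases, and strand use in counting was not given in the sources used here. RpL17 alone of the 7 passed in each fit that left out 1 library. The count was 20 without larval control replicate 1, 1 without larval control replicate 3, 3 without larval RNAi replicate 3 and 4 without either pupal RNAi replicate 1 or 2, and it was 21 with DESeq2 and 14 without a filter on low counts.

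**Figure D3:**
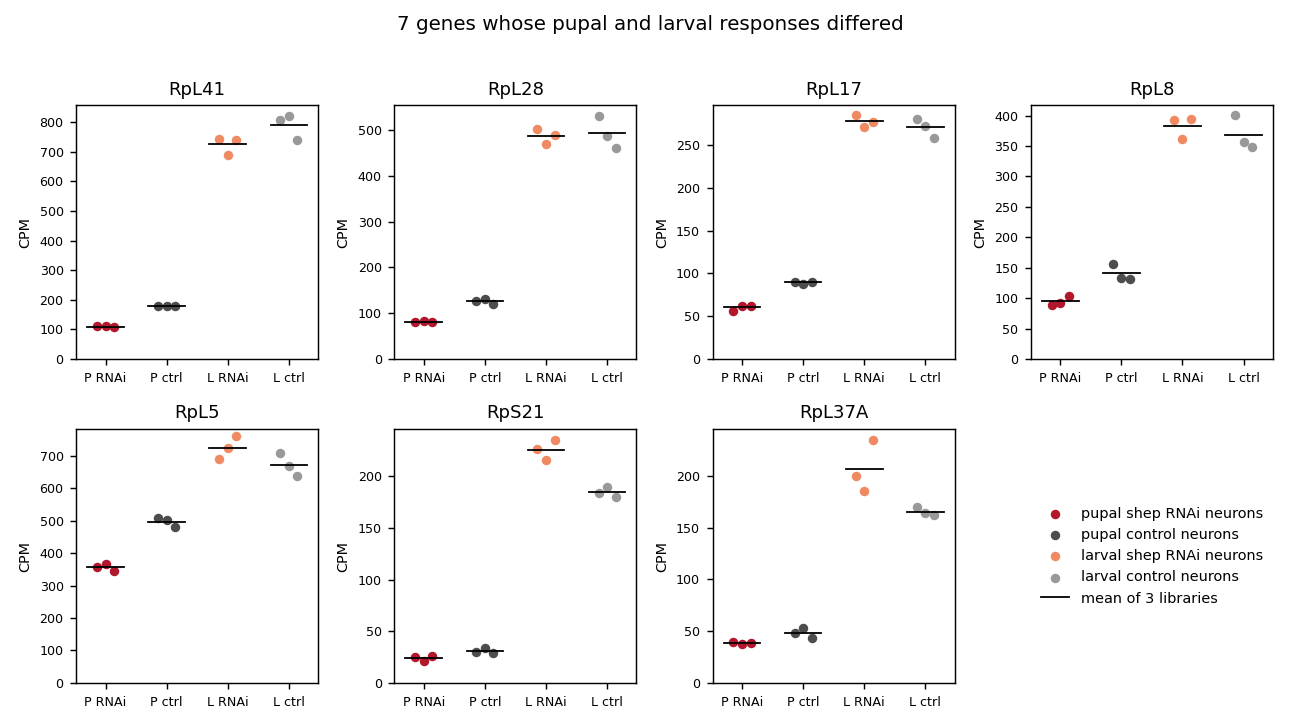
CPM of the 7 members whose pupal and larval responses differed, in each neuron library (points) with group means (lines). For RpL41, RpL28, RpL17, RpL8 and RpL5 the pupal RNAi points lie below the pupal control points and the larval groups overlap, while RpS21 and RpL37A are lower on RNAi in pupae and higher on RNAi in larvae.

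Between the stages the same genes differed by far more. Pupal control neurons were set against larval control neurons, and 78 of 79 tested members were lower in pupae and 1 was higher, where 44.3% of all genes were called lower and 39.0% higher. The median log2 fold change was -1.76 over members and -0.16 over all genes. The small-subunit median was -1.95 (32 of 32 lower) and the large-subunit median -1.60 (46 of 47 lower). The summed level of 7 neuroblast markers was 18.7 to 22.6 CPM in pupal control against 612 to 851 CPM in larval control libraries. The 6 glial markers summed to 938 to 1055 CPM in pupal control against 128 to 159 CPM in larval control libraries, and the 6 hemocyte markers to 304 to 347 against 36.4 to 41.6 CPM. Most of these pupal sums came from Eaat1 and Pxn, while repo had a median of 1.09 CPM in pupal control against 8.81 CPM in larval control libraries. The part of cell makeup in the result was not tested.

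The size of the fall in pupae differed among members. The largest belonged to RpS20, with 52.2, 74.6 and 63.1 CPM in pupal control against 477, 536 and 479 CPM in larval control neurons, groups far apart (log2 fold change -2.97, SE 0.10, edgeR's adjusted p = 1.25e-18). RpS5a (-2.81), RpS16 (-2.81), RpS13 (-2.64) and RpL11 (-2.63) followed. At the other end RpL15, of the large subunit, had 436, 482 and 408 CPM in pupal control against 569, 539 and 507 CPM in larval control neurons, still without overlap (log2 fold change -0.28, SE 0.08, edgeR's adjusted p = 0.00302), a call that was lost with the gene length trend removed. RpL5 (-0.43), RpL36 (-0.45), RpS25 (-0.64) and RpS30 (-0.66) also fell little. RpL15 and RpL5 lie in the heterochromatin near a centromere, as does RpL38, which fell more (-1.13). Through these unequal falls RpL15 ranked 3rd by level per length among members in pupal control and 32nd in larval control neurons, and the partners RpL5 and RpL11 of 5S rRNA stood at 130 and 41.8 CPM per kb in pupal control against 175 and 260 CPM per kb in larval control neurons. Their order per kb depends on the length used, 3835 exonic bases for RpL5 and 1017 for RpL11. In CPM, RpL5 was above RpL11 in pupal control (481 to 508 against 37.7 to 49.1) and in larval control neurons (640 to 708 against 247 to 285).

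Counts for the genes around the ribosome are to be read against the 44.3% of all genes called lower and 39.0% called higher by stage. sta fell by 2.97 and Rack1 by 1.71 on the log2 scale in pupal against larval control neurons. Of the 9 genes listed for elongation or for a 5′ terminal oligopyrimidine tract 8 fell, led by eEF1gamma (-4.08) and eEF1beta (-4.37), and eEF2 (-0.04) did not pass. Of 39 ribosome assembly genes 25 fell and 4 rose (median -0.88), with Nop60B (-2.45) and Nopp140 (-2.19), which work in rRNA modification and the nucleolus, among those with the smallest p. Of 69 mitochondrial ribosomal protein genes 23 fell and 26 rose (median -0.14). Of the 12 regulators 8 fell and 4 rose, and Myc fell by 3.18 on the log2 scale.

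The only member higher in pupae was RpL24-like (FBgn0037899, 3R from 11430740 to 11431582), the counterpart of the yeast assembly factor Rlp24, which holds the place of the ribosomal protein RpL24 in the nucleus. It had 89.4, 95.4 and 97.1 CPM in pupal control against 31.9, 33.7 and 33.3 CPM in larval control neurons, with no overlap (log2 fold change 1.52, SE 0.09, edgeR's adjusted p = 1.31e-13). RpL24 itself had 203, 193 and 194 CPM in pupal control against 484, 377 and 350 CPM in larval control neurons and fell (log2 fold change -1.03, SE 0.10, edgeR's adjusted p = 4.07e-09). Per length, RpL24-like thus made up 43.9 ± 1.76% of the pair in pupal control and 11.99 ± 1.99% in larval control neurons. On shep RNAi both fell in pupae, RpL24-like by 0.49 and RpL24 by 0.59 on the log2 scale, and the share was 45.6 ± 0.935% in pupal RNAi neurons, overlapping the control. In BG3 cells it was 17.1 ± 2.15% with shep dsRNA against 10.9 ± 1.38% with GFP dsRNA, without overlap. A gene on the opposite strand shares 21.6% of the exonic bases of RpL24.

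**Figure D4:**
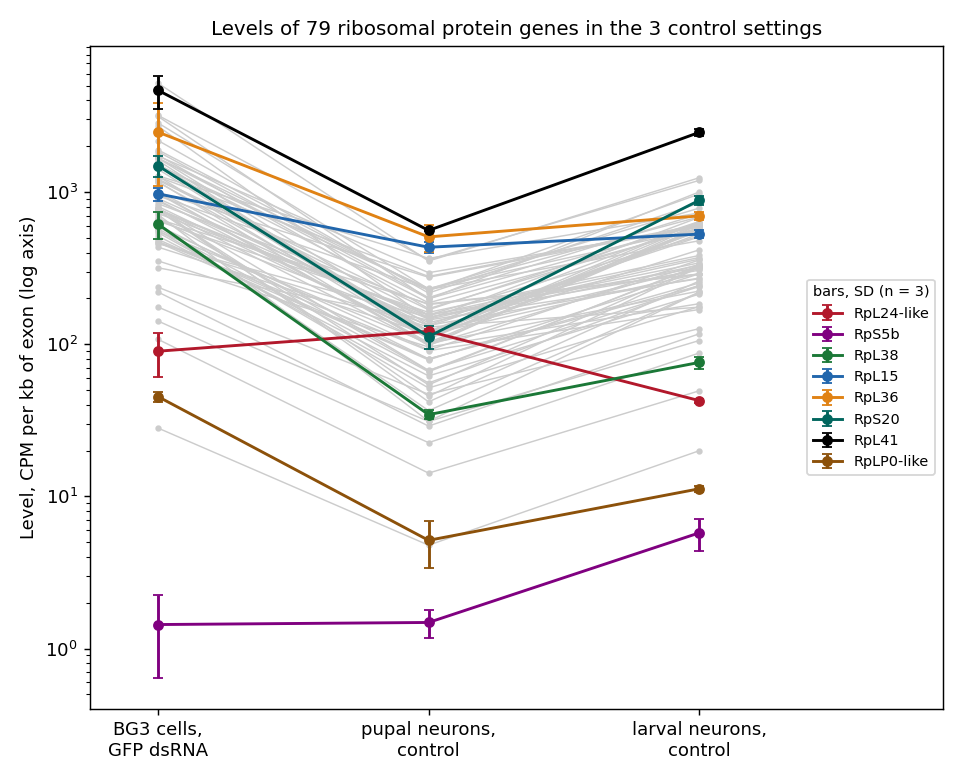
Mean level of the 79 members tested in neurons, in CPM per kb of exon on a log axis, in BG3 GFP dsRNA cells, pupal control neurons and larval control neurons; each line joins the values of 1 gene, and coloured genes carry the SD. Nearly all lines are lowest in pupal neurons, while RpL24-like is higher there than in larval neurons (122 against 42.6) and RpS5b is low in BG3 cells.

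BG3 cells were set against larval control neurons as a second setting of nervous system origin. Of 80 tested members, 78 were higher in BG3 GFP dsRNA cells and 1 was lower, where 37.0% of all genes were called higher and 45.4% lower. The median log2 fold change was 1.21 over members and -0.23 over all genes. Libraries of a cell line and of sorted cells differ in source and depth, which cannot be told apart from the cell type here. rRNA genes took 10.2% to 13.6% of counts in BG3 GFP dsRNA against 1.40% to 1.69% in larval control libraries, and genes of the mitochondrial genome 12.7% to 17.7% against 1.17% to 1.32%. The BG3 GFP dsRNA to larval control ratio of the members' mean share was 2.57, and 3.05 with rRNA and mitochondrial genes left out of the totals. Glial markers summed to 453 to 503 against 128 to 159 CPM, mostly moody in BG3 cells, and hemocyte markers to 446 to 487 against 36.4 to 41.6 CPM, mostly srp in BG3 cells. Not all listed genes went this way. The glial gene repo had 2.66 to 6.35 CPM in BG3 GFP dsRNA against 6.95 to 12.4 CPM in larval control libraries. Eaat1 (4.15 to 6.51 against 28.2 to 43.0 CPM) and Pxn (11.5 to 17.0 against 33.6 to 37.6 CPM) were lower too. Gs2 and Hml were higher in BG3 cells, nrv2 and alrm overlapped, and He, eater and NimC1 were near 0 in both groups. The part of these measures in the result was not tested. The largest rise was that of RpL38 (FBgn0040007, 2R from 4515388 to 4516458), with 702, 690 and 477 CPM in BG3 GFP dsRNA cells against 81.9, 79.9 and 68.8 CPM in larval control neurons, groups far apart (log2 fold change 3.02, SE 0.12, edgeR's adjusted p = 1.39e-19). RpL8 (2.23), RpL23 (2.06) and RpLP0-like (2.01) followed, and RpL3 rose least (0.24, edgeR adjusted p = 0.00853), a call that was lost without GFP dsRNA replicate 1 or 3 or without larval control replicate 2 or 3.

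The member lower in BG3 cells was RpS5b (FBgn0038277, 3R from 14900432 to 14901563), the copy of RpS5a that is known from the ovary. It had 1.75, 1.86 and 0.489 CPM in BG3 GFP dsRNA cells, from 2 to 7 counts each, against 4.005, 5.90 and 6.50 CPM in larval control neurons (log2 fold change -1.99, SE 0.37, edgeR's adjusted p = 1.20e-05). The groups do not overlap, but the BG3 values rest on few counts. RpS19b, the lesser copy of RpS19a, did not pass (log2 fold change 0.88, edgeR adjusted p = 0.254), with 10 counts in all over the BG3 GFP dsRNA libraries and 18 over the larval controls.

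Within BG3 cells, shep dsRNA was compared with GFP dsRNA. Of 78 tested members 3 fell and 0 rose, where 2.07% of all 6816 genes were called lower and 3.35% higher, and the median log2 fold change was -0.12 over members and -0.01 over all genes. RpL24 had 528, 480 and 545 CPM with shep dsRNA, against 867, 1107 and 770 CPM with GFP dsRNA. All shep dsRNA libraries lay below all controls (log2 fold change -0.83, SE 0.13, edgeR's adjusted p = 0.0101). RpL28 (-0.32, edgeR adjusted p = 0.0159) and RpS4 (-0.30, edgeR adjusted p = 0.0161) were the other calls. RpL38 (-0.68), RpL41 (-0.64) and RpS2 (-0.63) differed by more than RpL28 and RpS4, though by less than RpL24, and did not pass. At an unadjusted p under 0.05, 17 members were lower and 1 higher, and DESeq2 and limma-voom each called 7, all lower. The matching shares of all genes are not given here, so nothing about the members is read from these counts. With the gene length trend removed, the median log2 fold change was -0.05 over members and -0.0049 over all genes.

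Other measures separated the BG3 groups too. Genes of the mitochondrial genome took 7.53% to 10.1% of counts with shep dsRNA against 12.7% to 17.7% with GFP dsRNA. The glial markers summed to 522 to 549 CPM with shep dsRNA against 453 to 503 CPM with GFP dsRNA, and the hemocyte markers to 516 to 553 against 446 to 487 CPM. Most of these sums came from moody (431 to 440 against 365 to 401 CPM) and srp (486 to 516 against 417 to 454 CPM). The groups overlapped for repo, Eaat1, nrv2, alrm, Hml and Pxn, and Gs2 was lower with shep dsRNA. The part of these measures in the result was not tested.

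GFP dsRNA replicate 2 bears on these values. Its members took 10.8% of counts, against 8.54% and 8.89% in the other 2 GFP dsRNA libraries, and RpL36 had 2781 CPM there against 1060 and 1254 CPM. Without it, the median over members was 0.02 and 10 members were called, 6 lower and 4 higher, among them RpL24, RpL28 and RpS4. Without GFP dsRNA replicate 3, 11 were called lower, and without any 1 shep dsRNA library 1 was called. RpL24 lost its call without shep dsRNA replicate 2, and RpL28 and RpS4 lost theirs without GFP dsRNA replicate 1 or shep dsRNA replicate 1 or 3, RpL28 also without shep dsRNA replicate 2.

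Paralogue by paralogue, some lesser copies had few or no counts and others were expressed. RpL10Aa, RpL37-2 and RpL7-like had no count in any of the 18 libraries, RpL22-like, RpS28a and RpS28-like had 2 counts each over all libraries, and RpS10a had 15. A count of 0 allows up to 3 counts in a library, counting error only. RpL7-like shares 98.8% of its exonic bases with another gene on its strand, so reads from it may not have been assigned to it. RpS19b had 77 counts over all libraries and at most 0.595% of its pair per length in any group, as a mean. These genes, 8 with RpS10a and RpS19b, did not pass the filter in neurons, and RpS5b did not pass it in BG3 cells.

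The other lesser copies were expressed, each at its own share of the pair. RpL34a made up 16.1 ± 1.98% of the RpL34 pair per length in BG3 shep dsRNA and 18.6 ± 1.49% in BG3 GFP dsRNA cells, 12.04 ± 1.96% in pupal RNAi and 13.4 ± 2.37% in pupal control neurons, and 19.7 ± 0.524% in larval RNAi and 22.6 ± 0.731% in larval control neurons. The larval RNAi share lay below the control share in all libraries. RpS14b, which lies beside RpS14a on X (7934898 to 7935792 and 7933742 to 7934677, dm6), made up 27.1 ± 1.49% and 28.5 ± 2.11% in BG3 cells with shep and with GFP dsRNA, 21.1% and 19.1% in pupal RNAi and control neurons, and 32.5% and 32.3% in larval RNAi and control neurons. Since these pairs encode near-identical proteins and the handling of reads that map to more than 1 place was not given in the sources used here, the split within a pair is uncertain.

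The remaining lesser copies were minor in every group. RpS15Ab held 3.75% and 4.01% of its pair in BG3 shep dsRNA and GFP dsRNA cells, 5.98% and 6.60% in pupal RNAi and control neurons, and 5.72% and 5.75% in larval RNAi and control neurons. As for the RpL34 and RpS14 pairs, the split within this pair is uncertain. RpLP0-like, the counterpart of the yeast assembly factor Mrt4, which holds the place of RpLP0, stood at 9.25% and 8.98% in BG3 shep and GFP dsRNA cells against 3.19% to 3.55% in the 4 neuron groups. RpS5b held 0.165% and 0.193% in the BG3 groups, 3.07 ± 1.69% and 3.14 ± 0.521% in pupal RNAi and control neurons, and 1.93% and 1.80% in larval RNAi and control neurons. Its pupal shares rest on few counts, 4 to 12 per RNAi library and 7 to 11 per control library. Over 7 pairs, 31 differences in this balance were tested with an exact 2-sided permutation test, none with p under 0.1, the smallest possible, and the smallest value after Benjamini-Hochberg adjustment was 0.31. The shifts of RpL24-like by stage and with shep dsRNA in BG3 cells and that of RpLP0-like between BG3 cells and larval neurons were among those at an exact permutation p of 0.1.

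**Figure D5:**
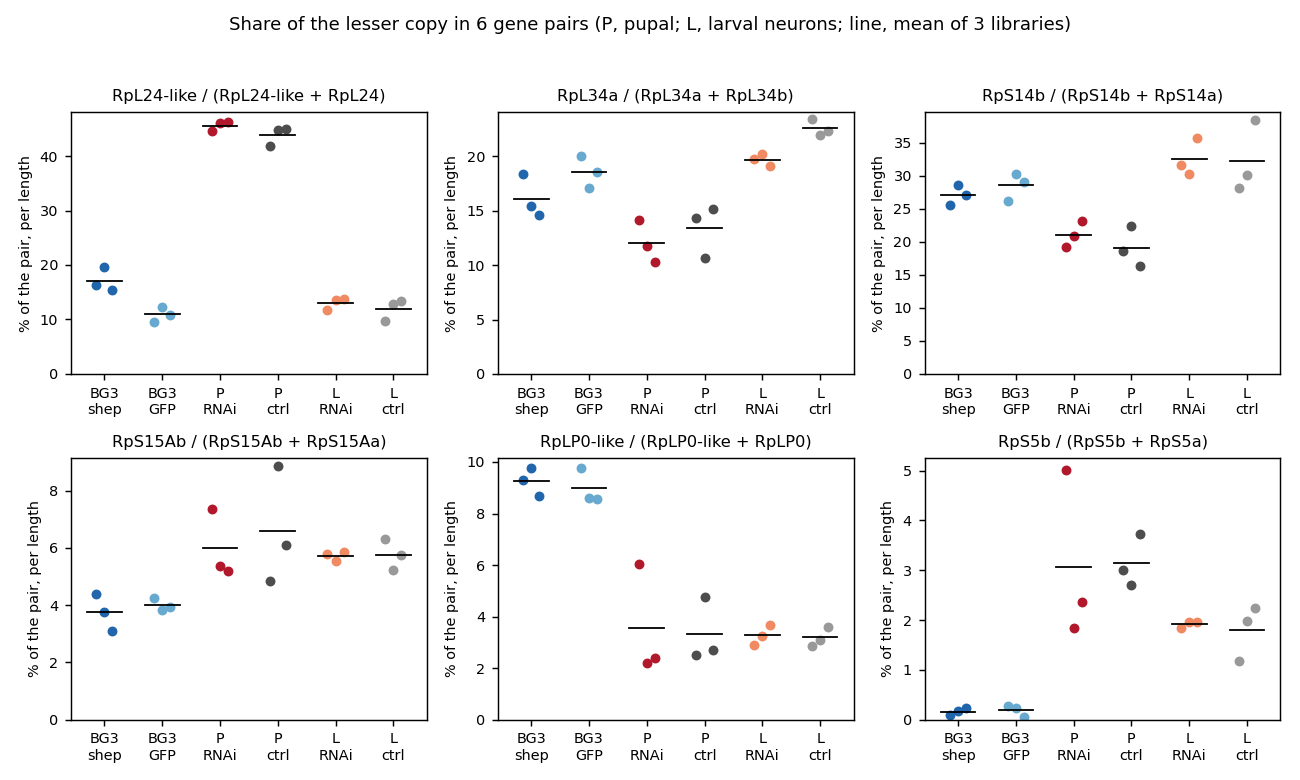
Share of the lesser copy in 6 pairs, as a percentage of the pair's CPM per kb of exon, in each library (points) with group means (lines). RpL24-like lies at 41.9% to 46.2% in the pupal libraries and at 9.56% to 19.5% in the others, RpLP0-like is highest in the BG3 groups, and within each setting the knockdown and control points overlap for most pairs.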

How the data were processed

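The authors deposited raw whole-number read counts per gene for all 18 libraries. Per the submitters' processing notes, reads were processed with cutadapt 1.10, HISAT2 2.0.4 and featureCounts 1.5.0-p3 on dm6. The annotation release, strand use and the treatment of reads with several matches are not given in the sources used here. Per the labels, total RNA was made into libraries with the Nugen Ovation kit.

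Symbols, coordinates and exonic lengths came from Ensembl release 115, which named 17210 of 17402 genes; 2102 genes had no count. edgeR 4.0.16 in R 4.3.3 (filterByExpr, TMM, robust quasi-likelihood test, Benjamini-Hochberg adjustment over all genes, 2-sided, threshold 0.05) was fitted to the 12 neuron libraries (8784 genes, 8 residual degrees of freedom), to the 6 BG3 libraries (6816 genes, 4 degrees of freedom) and, for BG3 against larval neurons, to all 18 (9439 genes, 12 degrees of freedom). Levels are CPM with TMM factors over 18 libraries, per kb of merged exons where genes are compared. Limits from 0 or few counts cover counting error only. Paralogue balance was the log2 ratio of counts with a pseudocount of 0.5, tested by exact permutation where the lesser copy averaged at least 5 counts. The steps were run on counts simulated from a common mean per gene over the groups, with genes picked at random and changed. Those counts held no broad stage or cell line difference and no shared shift of a gene family, so such settings were not tested.

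Members, lists of related genes and tests were chosen with earlier results of these data known. Genes were named by rule: shep, members with a paralogue, the 5 called members with the smallest p per direction and comparison, members called for the difference of responses or against the majority, sta, Rack1 and up to 4 assembly genes per comparison; others were chosen after their values were seen. 1 member is counted in all summaries but not reported here on its own. List entries with no matching symbol were dropped. Alternatives were RLE size factors, TMM without these genes, DESeq2 1.42.0, limma-voom (limma 3.58.1), no filter, 1 CPM in 3 libraries, removal of the length trend (lowess, span 0.3), a replicate block, only the groups compared, an adjusted p under 0.01 and leaving out each library.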

Additional observations from a re-analysis of the deposited data

Results flagged for a closer look

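For 7 members the response to shep RNAi differed between pupal and larval neurons by a test of the difference itself (edgeR, adjusted over all genes). The pupal minus larval log2 fold change was -0.61 for RpL17 (edgeR adjusted p = 0.0107), -0.61 for RpL28, -0.58 for RpL41, -0.59 for RpL5, -0.66 for RpS21, -0.63 for RpL8 and -0.64 for RpL37A. The pupal fold change of each passed the test on its own, that of RpS21 in 9 and that of RpL37A in 3 of 12 fits that left out 1 library, and no larval one did.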

How the results depend on the processing

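Between the stages 79 members were called in every fit that left out 1 library and 78 with the length trend removed, which lost RpL15, and between BG3 GFP dsRNA cells and larval controls 78 to 79. In pupal neurons 40 members were called, 24 at an adjusted p under 0.01 and 23 to 47 with 1 library left out. In larval neurons 0 were called, 1 with DESeq2 and 0 to 0 with 1 library left out. For the difference between the responses 7 were called, 21 with DESeq2, 14 without a filter on low counts, 0 at an adjusted p under 0.01 and 1 to 20 with 1 library left out. For shep dsRNA in BG3 cells 3 were called, 7 with DESeq2 and 7 with limma-voom, 12 with the length trend removed (9 lower and 3 higher), 15 without a filter, 0 at an adjusted p under 0.01 and 1 to 11 with 1 library left out. shep itself, called higher in pupal than in larval control neurons (0.52), reversed to -0.28 with the length trend removed. With a pseudocount of 5, the balance of RpS5b to RpS5a moved to 1.40 by stage and to -2.42 between BG3 cells and larval controls. The causes were not tested.

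With the replicate number as a block, 36 members were called in pupal neurons (35 of the 40, with RpL3 and RpL37A among those lost), 8 for the difference and 18 (17 lower and 1 higher) in BG3 cells, where 2 of the 3 calls were kept and RpL24 was lost. The labels do not say that a number pairs samples: deviations of same-numbered libraries correlated at -0.14, -0.10 and -0.01 between the pupal, 0.03, -0.04 and 0.00 between the larval, 0.03, 0.06 and 0.07 between the BG3 and 0.25, 0.18 and 0.03 between the pupal and larval control groups. RpS5b in BG3 cells and in pupal neurons and RpS19b in all groups rest on few counts.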
